A study of Homo sapiens with 4 samples.

Results

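The genes that write, maintain and remove DNA methylation were read out in H9 cells, an established human embryonic stem cell line also listed as WA09. They were taken by name and number 10 of the 60483 gene identifiers counted: DNMT1, DNMT3A, DNMT3B, DNMT3L, UHRF1, UHRF2, TET1, TET2, TET3 and TDG. Stranded mRNA libraries made from total RNA were sequenced, with 2 libraries from cells with SLC35F2 knocked out (KO) and 2 from control cells, all of the same line. SLC35F2 is a membrane transporter of the solute carrier superfamily. The labels give no treatment, time, passage or culture condition, and do not say whether a group's libraries came from separate cultures, clones or pools. P-values therefore measure the spread between these libraries, which may be technical. The comparison asks how RNA levels in these stem cells differ once SLC35F2 is lost.

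DNA methylation in mammals is placed on cytosines that precede guanines (CpG). DNMT3A and DNMT3B set new methyl marks, with DNMT3L as a partner that has no catalytic activity of its own, and DNMT1 copies the marks after replication when UHRF1 brings it to the newly made strand. TET1, TET2 and TET3 oxidise the methylated cytosine, and the glycosylase TDG cuts out the oxidised bases. Human embryonic stem cells are known for abundant DNMT3B and TET1 and for a genome that is highly methylated.

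Promoter windows of these genes, each from 250 bases before to 50 bases after a RefSeq transcript start (GRCh38.p14), were available for 9 of the 10, all but DNMT3L, as 20 windows. The windows of DNMT1 and UHRF1, the maintenance pair, are shown because they alone among the 9 genes held letters of the E2F motif, the site of factors that act at the entry into S phase. The letters searched were TTTCCCGC, TTTCGCGC, TTTGCCGC and TTTGGCGC on both strands. They stood in 3 of the 20 windows, and in 3.31% of 35116 windows of the same length over all genes. In GENCODE 29 the transcript start of the DNMT1 window lies 36333 bases from the gene start. Those of the UHRF1 windows lie 6421 and 7064 bases from it. All 3 are inside the gene span, whose start is that of the outermost annotated transcript. Which start these cells use was not tested. Capitals mark the matching letters.
DNMT1 (chr19:10194904-10195203, minus strand): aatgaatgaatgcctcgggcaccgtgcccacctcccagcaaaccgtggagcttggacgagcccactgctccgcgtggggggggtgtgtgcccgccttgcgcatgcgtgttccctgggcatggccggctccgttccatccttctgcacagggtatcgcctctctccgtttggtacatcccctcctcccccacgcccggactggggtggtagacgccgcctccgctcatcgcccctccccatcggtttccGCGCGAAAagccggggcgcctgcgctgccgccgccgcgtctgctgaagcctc
UHRF1, upstream window (chr19:4909251-4909550, plus strand): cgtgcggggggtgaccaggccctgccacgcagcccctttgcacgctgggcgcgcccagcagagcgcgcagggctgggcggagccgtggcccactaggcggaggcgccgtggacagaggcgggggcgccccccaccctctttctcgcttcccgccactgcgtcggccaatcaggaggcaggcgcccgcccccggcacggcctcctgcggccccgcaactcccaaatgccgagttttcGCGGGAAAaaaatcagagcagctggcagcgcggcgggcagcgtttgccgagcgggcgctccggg
UHRF1, downstream window (chr19:4909894-4910193, plus strand): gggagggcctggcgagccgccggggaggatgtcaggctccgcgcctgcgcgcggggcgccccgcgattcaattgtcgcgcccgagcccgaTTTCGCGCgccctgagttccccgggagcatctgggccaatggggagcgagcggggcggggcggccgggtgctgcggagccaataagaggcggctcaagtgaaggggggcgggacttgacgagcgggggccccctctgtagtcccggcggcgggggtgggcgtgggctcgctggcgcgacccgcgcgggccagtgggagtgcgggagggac

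The windows of DNMT3B, the most abundant of the genes, and of UHRF2 and TET2, the only 2 whose KO libraries both lay above the controls, are shown with each CpG in capitals. The start of the DNMT3B window lies 17467 bases downstream of the gene start in GENCODE 29, at an internal start, and the window held 3 CpGs. The UHRF2 window held 26 CpGs. TET2 had 2 windows, the one shown at the GENCODE 29 gene start with 13 CpGs and another 1001 bases downstream with 35, against a median of 14 over all windows. The octamer ATTTGCAT, a POU factor motif, was in 0 of the 20 windows and in 1.77% of all windows on either strand.
DNMT3B (chr20:32779602-32779901, plus strand): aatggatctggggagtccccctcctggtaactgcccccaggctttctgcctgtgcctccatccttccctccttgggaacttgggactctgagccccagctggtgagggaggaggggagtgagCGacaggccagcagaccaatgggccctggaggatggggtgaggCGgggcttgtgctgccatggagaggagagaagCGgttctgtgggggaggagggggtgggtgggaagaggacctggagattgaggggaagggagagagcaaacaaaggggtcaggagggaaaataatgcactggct
UHRF2 (chr9:6412949-6413248, plus strand): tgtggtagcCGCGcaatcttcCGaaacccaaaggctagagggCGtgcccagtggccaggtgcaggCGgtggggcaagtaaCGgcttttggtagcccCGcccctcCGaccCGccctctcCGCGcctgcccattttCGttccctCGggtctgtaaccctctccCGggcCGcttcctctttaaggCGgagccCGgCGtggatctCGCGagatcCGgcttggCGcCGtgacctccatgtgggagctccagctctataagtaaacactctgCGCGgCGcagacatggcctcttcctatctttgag
TET2 (chr4:105145625-105145924, plus strand): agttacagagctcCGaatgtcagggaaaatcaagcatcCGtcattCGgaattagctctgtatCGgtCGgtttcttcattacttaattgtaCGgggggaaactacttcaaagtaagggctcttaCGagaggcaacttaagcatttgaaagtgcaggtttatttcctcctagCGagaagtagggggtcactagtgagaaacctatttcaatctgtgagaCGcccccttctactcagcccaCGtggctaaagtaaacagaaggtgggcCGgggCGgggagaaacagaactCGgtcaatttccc

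The targeted gene stood on the side that the labels give. SLC35F2 had 12.1 and 9.65 CPM (counts scaled to library size, on the usual CPM scale) in KO 1 and KO 2, against 41.1 and 27.1 CPM in control 1 and control 2 (log2 fold change -1.65 ± 0.35, edgeR adjusted p = 0.58), so that SLC35F2 RNA remained in both KO libraries. Assigned reads ranged from 27824693 to 37978705 per library. Of 19027 genes tested with edgeR's quasi-likelihood test, 5 (0.0263%) had a Benjamini-Hochberg adjusted p under 0.05, and such genes are said here to be called. KO 2 stood apart from the other libraries: set alone against both controls it gave 1096 called genes of 20642 tested, while KO 1 set alone gave 188. The chi-square of the counts per degree of freedom was 124 between the KO libraries and 54.6 between the controls. Markers of the labelled stem cells were abundant, with 1824 to 2138 CPM of LIN28A in KO and 1691 to 1760 CPM in control, and 227 to 401 CPM of POU5F1 in KO and 282 to 306 CPM in control.

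DNMT3B RNA dominated the set. Per kilobase of merged exons, which allows levels of different genes to be compared, DNMT3B averaged 239 ± 136 CPM per kilobase in KO and 329 ± 67.3 in control (SD, n = 2 each). That control level lay above 99.6% of the genes tested and was 13.9 times that of DNMT1, the next of the genes. DNMT1 (25.9 ± 5.87 CPM per kilobase in KO and 23.7 ± 5.04 in control) and TDG (20.9 ± 7.78 and 21.5 ± 6.65) followed, and their control libraries overlapped. DNMT3A (11.9 ± 6.09 in KO and 14.7 ± 1.46 in control), UHRF1 (13.1 ± 8.27 and 13.9 ± 6.97) and TET1 (9.93 ± 1.38 and 9.53 ± 2.42) came next, each overlapping its neighbour in this order in the controls. UHRF2 (7.12 ± 0.118 CPM per kilobase in KO and 5.12 ± 0.376 in control), TET3 (4.58 ± 1.39 and 4.33 ± 0.375) and TET2 (0.625 ± 0.103 and 0.398 ± 0.0322) stood lower, without overlap between neighbours in the controls. The TET2 level in control lay above only 17.5% of the genes tested. The size of these gaps depends on the length used. With the longest transcript as the length, DNMT3B stood at 351 CPM per kilobase in control and DNMT1 at 42.9, a smaller gap. UHRF2 (13.6 CPM per kilobase in control) then stood above TET1 (9.53).

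**Figure D1:**
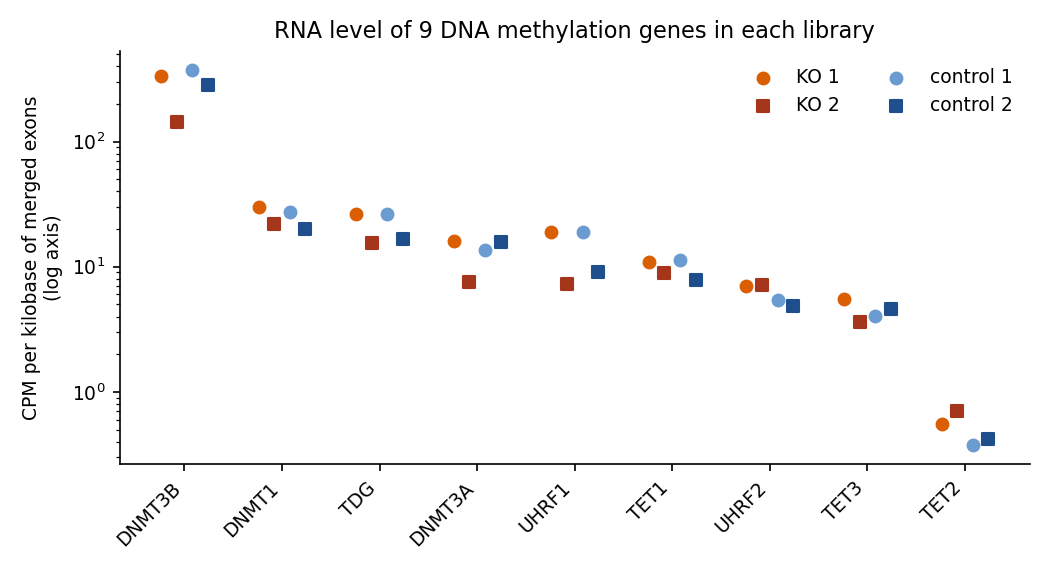
RNA level of the 9 genes with enough reads to be tested, as CPM per kilobase of merged exons on a log axis, with 1 point per library (KO 1, KO 2, control 1, control 2). DNMT3B lay above all others in each library, and KO 2 held the lowest point for DNMT3B, DNMT3A, UHRF1, TET3 and TDG.

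Of the 10 genes, 9 passed the filter on low counts, and 0 of these were called by edgeR, where the background was 0.0263% of all genes tested. None of the 9 had an unadjusted p under 0.05, and DESeq2 (0.315% of genes called) and limma-voom (0% called) called 0 of them as well. Their log2 fold changes (KO over control) ran from -0.46 to 0.66 with a median of 0.059, against a median of 0.029 over all genes. For UHRF2 and TET2 each KO library was higher than each control, as for 15.8% of all genes. None was lower in both, as against 16.3% of all genes. The other 7 overlapped between the groups. KO 1 lay above both controls for 7 of the 9 (35.0% of all genes) and below both for 0 (35.7%). KO 2 lay below both controls for 5 (37.7% of all genes) and above both for 2 (38.6%). The 2 KO libraries were farther apart than the 2 controls for 7 of the 9 genes, on the log2(CPM + 1) scale, and for 61.9% of all genes.

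**Figure D2:**
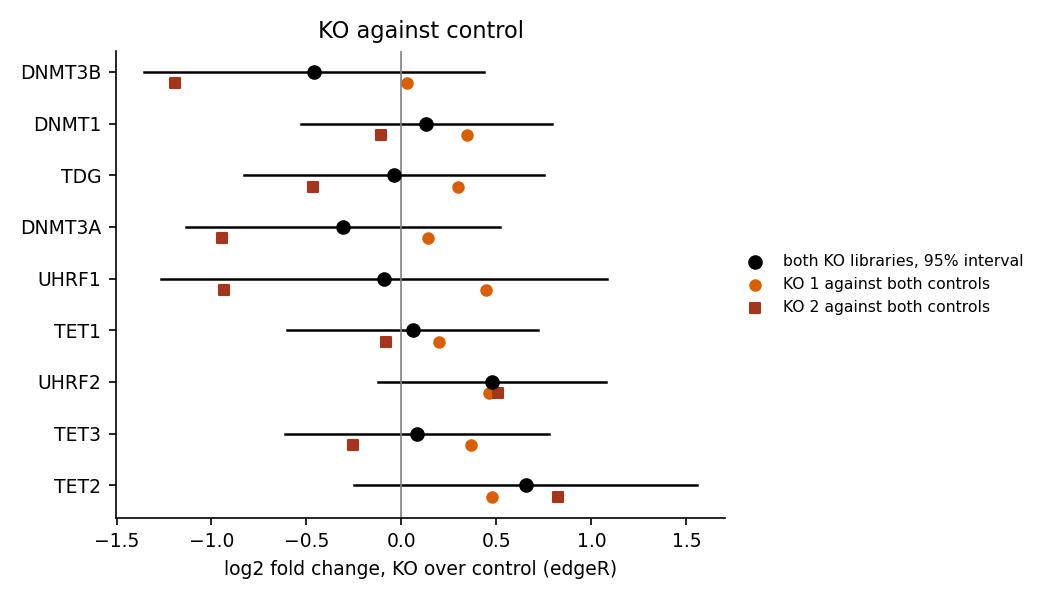
Log2 fold change of KO over control from edgeR with its 95% interval (black), and the same from fits that held only KO 1 (circles) or only KO 2 (squares) beside both controls. Every interval spans 0, and the KO 2 value for DNMT3B lies at -1.19 while its KO 1 value lies at 0.028.

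Among the enzymes that set new marks, DNMT3B (ENSG00000088305.17, chr20:32762385-32809356, plus strand, GRCh38) had 1550 CPM in KO 1 and 662 CPM in KO 2, against 1743 CPM in control 1 and 1302 CPM in control 2. KO 1 lay between the controls and KO 2 below both. The log2 fold change was -0.46 ± 0.39 (SE), with a 95% confidence interval from -1.36 to 0.43 and an edgeR adjusted p of 0.997, so a level in KO between 0.39 and 1.35 times that of control was compatible with the spread. With KO 1 left out, DNMT3B was called (log2 fold change -1.19 ± 0.38, edgeR adjusted p = 0.0417), as were 2.96% of the genes tested there as lower, and KO 2 is then assumed to vary as the controls do. With KO 2 left out its log2 fold change was 0.028 ± 0.37.

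DNMT3A (ENSG00000119772.15, chr2:25227855-25342590, minus strand) had 195 CPM in KO 1 and 91.0 CPM in KO 2, against 164 CPM in control 1 and 189 CPM in control 2. KO 1 was thus the highest library and KO 2 the lowest, at 0.515 times the control mean. The log2 fold change was -0.31 ± 0.36 (95% interval -1.13 to 0.52, edgeR adjusted p = 0.997), 0.14 with KO 1 alone and -0.94 with KO 2 alone (edgeR adjusted p = 0.122). DNMT3L (ENSG00000142182.7, chr21:44246339-44262216, minus strand), the regulatory partner, was close to absent, with 1 read in KO 1 and 17 in KO 2 against 0 in control 1 and 5 in control 2. The exact Poisson 95% intervals, which cover counting error only, were 0.0253 to 5.57 reads in KO 1, 9.90 to 27.2 in KO 2, up to 3.69 in control 1 and 1.62 to 11.7 in control 2. KO 2 therefore held the most DNMT3L reads, and its interval overlapped that of control 2. DNMT3L failed the filter on low counts and was not among the 19027 genes tested. With every gene that has a read its log2 fold change was 2.02 ± 1.29 (edgeR adjusted p = 0.836), and with KO 2 alone it was 2.81 ± 1.15 (edgeR adjusted p = 0.144).

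In the maintenance pair, DNMT1 (ENSG00000130816.13, chr19:10133345-10231286, minus strand), the copying methyltransferase, had 295 CPM in KO 1 and 213 CPM in KO 2, against 267 CPM in control 1 and 197 CPM in control 2. The groups overlapped, with a log2 fold change of 0.13 ± 0.29 (95% interval -0.53 to 0.79). Its sign turned with KO 1 left out (-0.11) or control 2 left out (-0.072). UHRF1 (ENSG00000276043.3, chr19:4903080-4962154, plus strand), which binds half-methylated CpGs and recruits DNMT1, varied more, with 97.5 CPM in KO 1 and 37.3 CPM in KO 2, against 97.0 CPM in control 1 and 46.3 CPM in control 2. KO 1 and control 1 were thus nearly level, and KO 2 and control 2 were both lower. UHRF1 had the widest interval of the 9 genes, from -1.27 to 1.08 around a log2 fold change of -0.09 ± 0.51. Its sign turned with control 1 left out (0.55) or KO 2 left out (0.44).

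UHRF2 (ENSG00000147854.15, chr9:6413151-6507054, plus strand), a relative of UHRF1 that does not replace it in maintenance, had 69.8 CPM in KO 1 and 71.5 CPM in KO 2, against 53.4 CPM in control 1 and 48.1 CPM in control 2. Both KO libraries lay above both controls and close to each other. The log2 fold change was 0.48 ± 0.26 (95% interval -0.12 to 1.08, unadjusted p = 0.105, edgeR adjusted p = 0.997). Over 13 alternative settings, all refits of these same libraries, it ran from 0.35 to 0.56. Per kilobase, UHRF1 stood at 2.69 times UHRF2 in KO 1 and 1.0 times in KO 2, against 3.51 times in control 1 and 1.86 times in control 2.

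Of the TET dioxygenases, TET1 (ENSG00000138336.8, chr10:68560656-68694482, plus strand), the main one of pluripotent cells, had 101 CPM in KO 1 and 83.2 CPM in KO 2, against 104 CPM in control 1 and 72.6 CPM in control 2. Both KO libraries fell between the controls (log2 fold change 0.059 ± 0.29, 95% interval -0.60 to 0.72). The sign turned with control 2 left out (-0.18) or KO 1 left out (-0.079), and also with library size only (-0.051) and with quantile normalisation (-0.025). TET3 (ENSG00000187605.14, chr2:73986404-74108176, plus strand), known from oocytes and differentiating cells, had 68.3 CPM in KO 1 and 44.2 CPM in KO 2, against 49.8 CPM in control 1 and 56.4 CPM in control 2. KO 1 was the highest and KO 2 the lowest (log2 fold change 0.082 ± 0.31, 95% interval -0.61 to 0.78). This sign turned with KO 1 left out (-0.25), with library size only (-0.039) and with quantile normalisation (-0.047).

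TET2 (ENSG00000168769.11, chr4:105145875-105279816, plus strand), best known from blood cells, where it is often mutated in leukaemia, was the rarest TET RNA. It had 9.09 CPM in KO 1 and 11.5 CPM in KO 2, against 6.17 CPM in control 1 and 6.92 CPM in control 2, from 250 and 393 reads in KO and 233 and 246 in control. Both KO libraries were higher than both controls, and the log2 fold change of 0.66 ± 0.40 was the highest of the 9 genes (95% interval -0.25 to 1.56, unadjusted p = 0.135, edgeR adjusted p = 0.997). It ran from 0.48 to 0.82 over 13 alternative settings, all refits of these same libraries, and was not called in any of them. TDG (ENSG00000139372.13, chr12:103965804-103988874, plus strand), the glycosylase, had 129 CPM in KO 1 and 75.5 CPM in KO 2, against 128 CPM in control 1 and 82.1 CPM in control 2 (log2 fold change -0.039 ± 0.35, 95% interval -0.83 to 0.75). Its groups overlapped, and KO 1 and control 1 were nearly level. The sign turned with KO 2 left out (0.30) or control 1 left out (0.33).

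Balances within the families were close between the groups, with differences smaller than the SD in control for the most abundant member of each. Per kilobase, DNMT3B made up 95.4% of the sum of DNMT3A and DNMT3B in KO 1 and 95% in KO 2, against 96.5% in control 1 and 94.7% in control 2. TET1 made up 64.0% of TET RNA in KO 1 and 67.6% in KO 2, against 71.7% in control 1 and 60.9% in control 2. TET2 made up 3.24% in KO 1 and 5.26% in KO 2, against 2.39% in control 1 and 3.28% in control 2, so KO 1 lay within the controls and KO 2 above them (exact permutation p = 0.667, two-sided). The sum of DNMT3A and DNMT3B over the sum of the 3 TETs was 20.6 in KO 1 and 11.4 in KO 2, against 24.9 in control 1 and 23.1 in control 2. Both KO libraries were lower than both controls in this ratio, which gives the smallest p that an exact permutation of 2 against 2 libraries allows (0.333), and cannot pass a threshold of 0.05. KO 2 held most of that gap, and DNMT3B made up most of the DNMT3 sum in every library. No other family ratio or share computed here separated the groups.

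**Figure D3:**
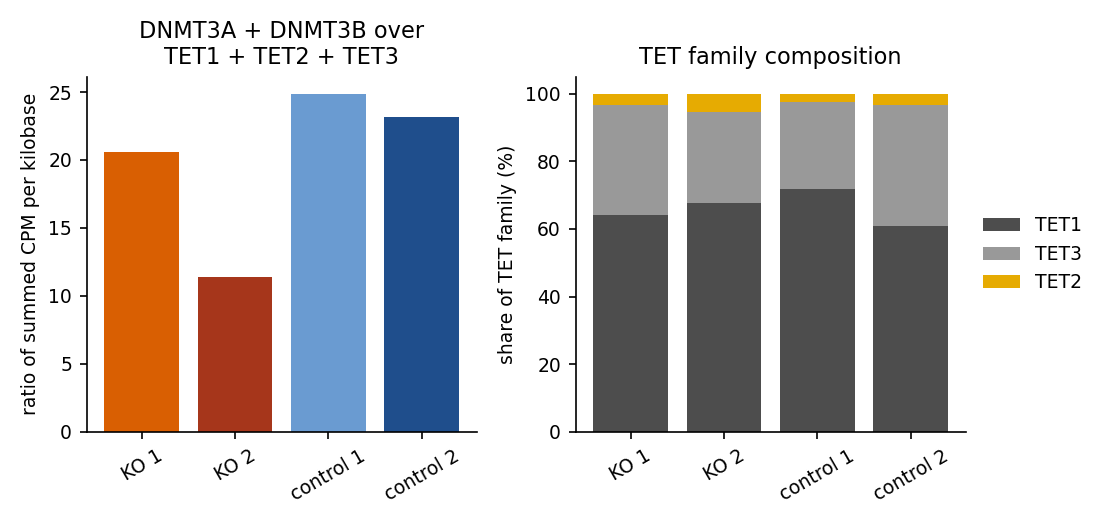
Left, the ratio of DNMT3A plus DNMT3B to TET1 plus TET2 plus TET3 in each library, from sums of CPM per kilobase (bars start at 0). Right, the share of each TET in the family sum. The ratio is 11.4 in KO 2 and 20.6 in KO 1, against 24.9 and 23.1 in the controls, and TET1 holds 60.9% to 71.7% of TET RNA in every library.

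KO 2, the library with the lowest DNMT3A, DNMT3B and UHRF1, also had the lowest sum of pluripotency markers, though not of each one. The 13 markers of pluripotent cells, all tested, summed to 8708 CPM in KO 1 and 6178 CPM in KO 2, against 8115 CPM in control 1 and 8185 CPM in control 2. In KO 2, 9 of the 13 lay below both controls (37.7% of all genes) and 2, SOX2 and LIN28A, above both (38.6%). SOX2, a core transcription factor picked once its values were known, had 327 CPM in KO 1 and 427 CPM in KO 2 against 365 and 314 CPM in control. NANOG, another core factor, had 46.2 CPM in KO 1 and 19.1 CPM in KO 2 against 61.2 and 64.7 CPM in control. In bulk RNA, fewer cells of a type and less RNA per cell cannot be told apart. Neuroectoderm markers summed to 583 CPM in KO 1 and 969 CPM in KO 2 against 519 and 815 CPM in control, mostly NES, and PAX6 stayed under 2 CPM in every library. Fibroblast markers summed to 611 and 1172 CPM in KO against 599 and 955 CPM in control, mostly THY1, COL1A1 and COL1A2. LUM and DCN were near 0 throughout. COL1A1 had 46.8 CPM in KO 1 and 552 CPM in KO 2 against 128 and 300 CPM in control. It was thus the lowest in KO 1 and the highest in KO 2. THY1 had 429 and 337 CPM in KO against 296 and 376 CPM in control. Mesoderm and endoderm markers summed to 163 and 140 CPM in KO against 293 and 313 CPM in control, mostly KDR. Trophoblast and amnion markers summed to 29.5 and 24.3 CPM in KO against 26.8 and 52.6 CPM in control. Of these, 7 were tested, 0 called, 3 lower in both KO libraries (16.3% of all genes) and 1 higher (15.8%). Picked once values were known, GATA2 had 305 reads in control 2, against 19 in control 1 and 3 and 5 in KO. TFAP2A (118 reads) and HAND1 (79 reads) were also highest in control 2, while GATA3 was highest in KO 2 (52 reads). CGA had 0 reads. The part of these marker levels in the DNMT3B result was not tested.

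Of 9 partners of the maintenance machinery, 0 were called (0.0263% of all genes), 1 (CDCA7L) was lower in both KO libraries (16.3%) and 0 were higher (15.8%), with a median log2 fold change of -0.10 against 0.029 over all genes. KO 2 lay below both controls for 6 of the 9 (37.7% of all genes) and above both for 1 (38.6%), while KO 1 lay below both for 1 (35.7%) and above both for 3 (35.0%). PCNA, the replication clamp, had 265 and 186 CPM in KO against 311 and 229 CPM in control. CBX5, a heterochromatin protein, had 339 and 408 CPM in KO against 253 and 346 CPM in control. HELLS, picked once its values were known, is a remodeller needed for methylation of repeats and had 134 CPM in KO 1 and 63.3 CPM in KO 2 against 129 and 116 CPM in control.

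Of 11 histone methyltransferases, demethylases and relatives linked to DNA methylation, all tested, 6 were higher in both KO libraries and 0 lower, against 15.8% and 16.3% of all genes, and 0 were called (median log2 fold change 0.29). KDM1A, a histone demethylase, had 289 and 328 CPM in KO against 320 and 301 CPM in control, and NSD1, a histone methyltransferase, had 313 and 206 CPM in KO against 237 and 210 CPM in control. EHMT2, picked once its values were known, methylates histones of silent chromatin and had 171 and 165 CPM in KO against 123 and 85.8 CPM in control (log2 fold change 0.69 ± 0.28, edgeR adjusted p = 0.997). Of 10 readers of methylated CpGs, 3 were higher (15.8% of all genes) and 1 lower (16.3%) in both KO libraries and 0 were called, with a median of 0.34. MBD3, a subunit of a deacetylase complex, had 116 and 79.7 CPM in KO against 83.5 and 59.0 CPM in control, and MBD1 had 57.5 and 57.2 CPM in KO against 51.9 and 55.6 CPM in control.

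Of 10 genes that work with the TETs or bind unmethylated CpGs, 9 were tested and 0 were called. In both KO libraries 1 was higher (15.8% of all genes) and 1 lower (16.3%), around a median of 0.12 on the log2 scale. KO 2 lay above both controls for 2 of the 9 (38.6% of all genes) and below both for 5 (37.7%). QSER1, which limits DNMT3 action at regulatory regions, had 234 and 162 CPM in KO against 183 and 175 CPM in control, and SALL4, a zinc finger factor of stem cells, had 172 and 152 CPM in KO against 155 and 182 CPM in control. PRDM14, known in mouse stem cells for keeping the DNMT3 genes low, had 61.0 CPM in KO 1 and 27.9 CPM in KO 2, against 91.3 CPM in control 1 and 86.2 CPM in control 2 (log2 fold change -1.0 ± 0.37, edgeR adjusted p = 0.997). With KO 2 alone its log2 fold change was -1.66 ± 0.39. CXXC4, a CpG-binding protein, had 2.73 CPM in KO 1 and 16.4 CPM in KO 2, against 3.87 CPM in control 1 and 3.77 CPM in control 2. KO 2 alone was high, and was called against the controls (log2 fold change 2.11 ± 0.45, edgeR adjusted p = 0.000285), as were 2.35% of the genes tested there as higher. Both genes were picked once their values were known.

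Of 14 genes of the methyl donor cycle, 0 were called, 2 were higher (15.8% of all genes) and 1 lower (16.3%) in both KO libraries, and the median log2 fold change was 0.0032. MAT2A, which makes S-adenosylmethionine, the donor for every DNA methyltransferase, had 375 CPM in KO 1 and 69.3 CPM in KO 2, against 335 CPM in control 1 and 330 CPM in control 2. KO 2 lay far below the other 3 libraries. Over both KO libraries the log2 fold change was -0.58 ± 0.67 (edgeR adjusted p = 0.997), and with KO 2 alone it was -2.25 ± 0.40. AHCY, which clears the by-product of methylation, had 698 and 741 CPM in KO against 618 and 502 CPM in control. Among 14 genes that supply or use alpha-ketoglutarate or ascorbate, cosubstrates of the TETs, 0 were called, 3 were higher (15.8% of all genes) and 1 was lower (16.3%) in both KO libraries. IDH1, which makes alpha-ketoglutarate, had 473 and 347 CPM in KO against 524 and 370 CPM in control. OGDH, which consumes it, had 161 and 185 CPM in KO against 128 and 89.4 CPM in control (log2 fold change 0.67 ± 0.28, edgeR adjusted p = 0.997). In base excision repair, which finishes the removal begun by TDG, 0 of 13 genes were called and 4 were higher (15.8% of all genes) and 1 lower (16.3%) in both KO libraries. PARP1 had 724 and 700 CPM in KO against 768 and 667 CPM in control, and APEX1 had 394 and 287 CPM in KO against 374 and 256 CPM in control.

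**Figure D4:**
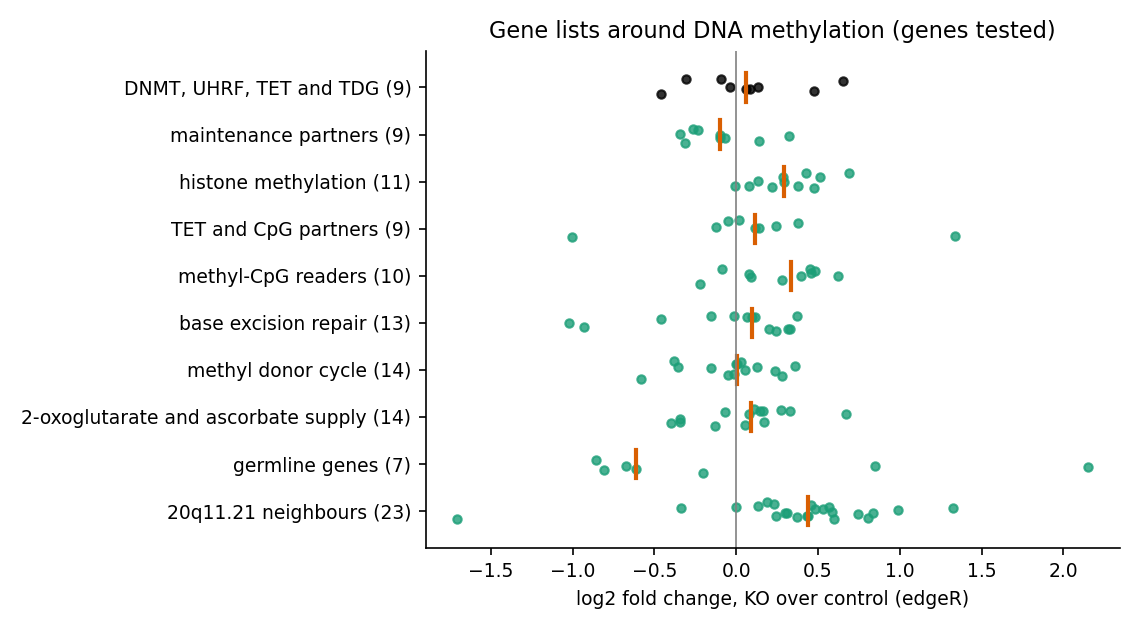
Log2 fold change of KO over control (edgeR) for each tested gene (points) of the DNA methylation genes (black) and 9 lists of related genes (green), with the number tested beside each name and the median as an orange bar. Medians lie between -0.61 for germline genes and 0.44 for the neighbours of DNMT3B, labelled as 20q11.21 neighbours.

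Germline genes whose promoters are methylated in somatic cells remained low, with DAZL as the exception in KO 2. Of 20, 7 had enough reads to be tested, 0 were called, 0 were higher (15.8% of all genes) and 1 was lower (16.3%) in both KO libraries, and the median log2 fold change was -0.61. DAZL, an RNA-binding protein of germ cells, had 2.76 CPM in KO 1 and 24 CPM in KO 2, against 4.11 CPM in control 1 and 1.94 CPM in control 2. Only KO 2 stood apart. The log2 fold change over both KO libraries was 2.15 ± 0.91 (edgeR adjusted p = 0.997), and with KO 2 alone it was 2.99 ± 0.44. DPEP3, a membrane dipeptidase of the testis, had 1.45 and 3.48 CPM in KO against 1.25 and 1.55 CPM in control. Of genes picked once their values were known, DDX4, the germ cell helicase, had at most 0.182 CPM in any library, and TEX14, a protein of germ cell bridges, had 2.25 CPM in KO 1 and 0.175 CPM in KO 2 against 2.15 and 1.86 CPM in control.

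DNMT3B lies in 20q11.21, a segment that is often gained in cultured human stem cells. Most of its neighbours did not share its low value in KO 2. Of 28 neighbours listed, 23 were tested. Their starts on chromosome 20 ran from 31605283 (ID1) to 33675683 (E2F1), and the last of them may lie outside 20q11.21. In KO 2, 19 of the 23 lay above both controls (38.6% of all genes) and 3, ID1, E2F1 and CDK5RAP1, below both (37.7%). The median log2 ratio of CPM to the control mean was 0.085 in KO 1 and 0.60 in KO 2, while DNMT3B stood at 0.026 in KO 1 and -1.20 in KO 2. Only ID1, at -1.35, had a lower ratio in KO 2 than DNMT3B, and E2F1 was also low there, at -0.97. TPX2, a spindle assembly factor, had 179 CPM in KO 1 and 435 CPM in KO 2, against 162 CPM in control 1 and 182 CPM in control 2. MAPRE1, the gene next to DNMT3B in the list, had 217 and 222 CPM in KO against 211 and 189 CPM in control. BCL2L1, an inhibitor of apoptosis picked once its values were known, had 64.9 and 83.6 CPM in KO against 53.9 and 52.3 CPM in control. With KO 2 alone, 7 of 26 neighbours tested were called as higher (2.35% of all genes) and 1 as lower (2.96%), and the median over both KO libraries was 0.44 with 10 higher (15.8% of all genes) and 1 lower (16.3%) in both. DNA copy number was not measured.

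**Figure D5:**
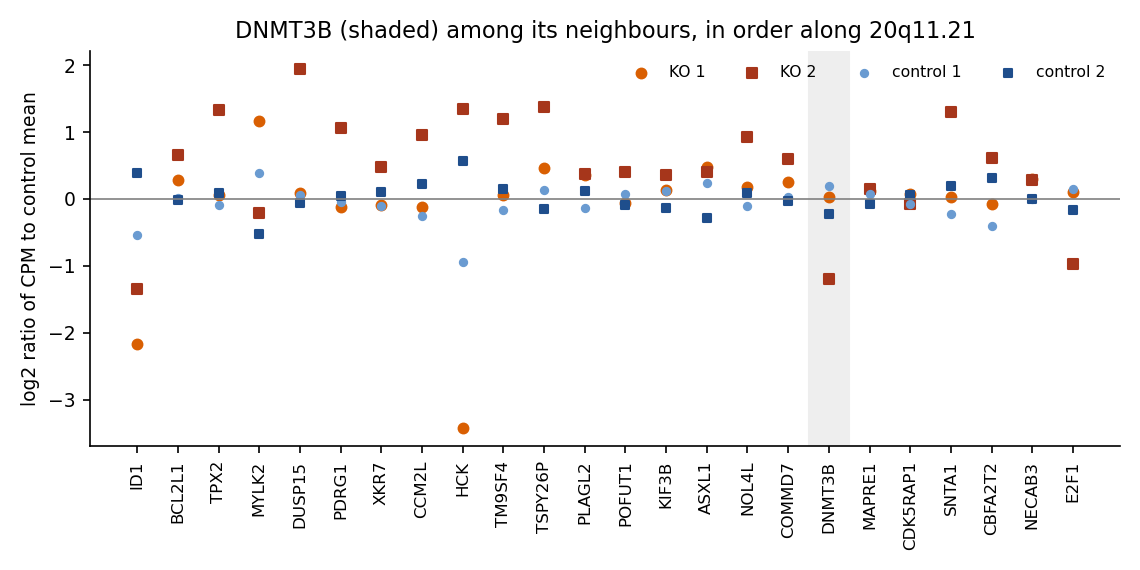
Log2 ratio of CPM to the control mean for DNMT3B (shaded) and 23 neighbours, in their order along chromosome 20, with 1 point per library. In KO 2 most neighbours lie above 0, and DNMT3B lies at -1.20.

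Patterns over the 4 libraries were compared by Euclidean distance of log2(CPM + 1) after each gene's mean was subtracted. The nearest of 11115 other protein-coding genes (mean of 5 CPM or more) to DNMT3B were SREBF1 (distance 0.063), CXCL12 (0.090), NOP56 (0.10), SCN9A (0.11) and PSPC1 (0.11). SREBF1 had 106 CPM in KO 1 and 44.5 CPM in KO 2, against 118 CPM in control 1 and 84.0 CPM in control 2. NOP56 had 456 and 197 CPM in KO against 553 and 413 CPM in control. With 4 libraries such distances describe these libraries only. Within the set, DNMT1 and TET1 were closest to each other (0.15), as were UHRF2 and TET2 (0.30) and DNMT3A and DNMT3B (0.48).

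The counting left some uncertainty for single genes. Exons of S1PR2 overlap those of DNMT1 on the same strand in GENCODE 29, and reads that fall on both would be given to neither in HTSeq's default mode. S1PR2 held 280 and 390 reads in KO against 479 and 462 in control. Pseudogenes named after DNMT3A, UHRF2, TET1 and TDG held 0 to 8 reads per library. Isoforms were not counted, so catalytically active and inactive splice forms of DNMT3B are summed.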

How the data were processed

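RNA was measured in 2 KO and 2 control libraries, grouped by their titles. Per the labels' protocols, a stranded mRNA kit was used. The submitters' processing notes name GRCh38 and the tools HTSeq 0.11.0, STAR 2.6.0a, cutadapt 1.8.1 and FastQC 0.11.7. Neither the annotation release nor the strand setting is given in the sources used here. The deposited values are raw read counts per gene, and the quantile normalisation that the labels mention is not in them. Alignments given to no gene (14.4% to 20.3%) were left out.

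Of the 60483 identifiers, 56753 matched GENCODE 29 without version. Promoter sequences are RefSeq's. Genes were filtered with filterByExpr (minimum count 10), scaled by TMM and compared with edgeR 4.0.16 (quasi-likelihood F test, two-sided, robust, legacy = FALSE, R 4.3.3), adjusted over all 19027 genes. The SE is the log2 fold change over the square root of F. The common dispersion was 0.132. Alternatives were other scalings, filters, DESeq2 1.42.0, limma 3.58.1, the legacy fit, the replicate block and each library left out.

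The members and lists were chosen with earlier results of these data known. Named were the members, SLC35F2, called genes or else the 2 most abundant of each list, and the 5 genes nearest to DNMT3B; other names are said to be chosen later, as are the marker and neighbour genes given as examples. In simulated counts from these libraries (18426 genes tested), edgeR called 3 of 48 genes altered 2-fold, 28 of 50 at 4-fold, 35 of 47 at 8-fold and 47 of 50 at 32-fold, and 14 of 18231 unaltered ones.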

Additional observations from a re-analysis of the deposited data

How the results depend on the processing

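Of 117 refits of the 9 genes' log2 fold changes under 13 alternatives, 101 kept their direction and their side of the threshold, 15 changed direction and 1 became called. UHRF2 and TET2 kept their direction in all 13. Both KO libraries lay above both controls for these genes, so leaving out 1 library could hardly turn the sign. That steadiness is therefore no further support for a difference. Over all genes, where 5 were called, edgeR called 0 with library size only (787 with an unadjusted p under 0.05), limma-voom called 0 (692) and edgeR called 0 at a mean CPM floor of 1 (523), 1 with quantile normalisation and with the legacy fit, 8 with any gene that has a read and 60 with DESeq2. Leaving out 1 library gave 3 to 1096 called genes, and 0 to 1 of the DNA methylation genes, where the 1 is DNMT3B without KO 1. In these refits log2 fold changes ran from -1.19 to 0.028 for DNMT3B, -0.94 to 0.14 for DNMT3A, -0.94 to 0.55 for UHRF1, -0.11 to 0.38 for DNMT1, -0.18 to 0.35 for TET1, -0.25 to 0.37 for TET3 and -0.47 to 0.33 for TDG. With library size only TET1 was at -0.051 and TET3 at -0.039, and with quantile normalisation TET1 was at -0.025 and TET3 at -0.047. Without scaling factors the median over all genes was -0.097, against 0.029 with them, so TET1 and TET3 then stood above it. With quantile normalisation that median was 0.034, and TET1 and TET3 stood below it. The cause of these turns was not tested. Of counts whose scaling alternatives were chosen after seeing the data, the neighbours of DNMT3B above both controls in KO 2 numbered 18 or 19 and the histone methylation genes higher in both KO libraries 5 or 6. Replicate numbers are shared between the groups but no label says that they mark a shared culture or day. Same-numbered libraries deviated together (correlation 0.42 over 11570 genes), and with the replicate block 76 genes were called and 0 of the DNA methylation genes (DNMT3B -0.57, edgeR adjusted p = 0.669). With 2 libraries a group, 2-fold changes were mostly missed in simulated counts, so differences of that size cannot be told from none.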

Other observations

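Among genes of active demethylation and repair that were named after their values were seen, GADD45B, a stress-inducible gene proposed to act in demethylation, was lowest in KO 1. It had 0.655 CPM in KO 1 and 8.25 CPM in KO 2, against 3.58 CPM in control 1 and 15.1 CPM in control 2, so that the controls were also far apart and each KO library lay below the control of its number. Its log2 fold change was -3.82 ± 0.70 with KO 1 alone, and over both KO libraries it was not called (-1.02 ± 0.98, edgeR adjusted p = 0.997). SLC23A2, a transporter of ascorbate, had 55.0 CPM in KO 1 and 20.3 CPM in KO 2, against 53.5 CPM in control 1 and 41.9 CPM in control 2. MTHFD1, a folate enzyme of the methyl donor cycle, had 309 CPM in KO 1 and 124 CPM in KO 2, against 334 CPM in control 1 and 228 CPM in control 2. With KO 2 alone the log2 fold change was -1.22 ± 0.38 for SLC23A2 and -1.17 ± 0.38 for MTHFD1. With KO 1 alone it was 0.21 for SLC23A2 and 0.14 for MTHFD1.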
